A study of Mus musculus with 6 samples.

Results

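The 91 genes described here are the classical and related cadherins and the protocadherins of the mouse, read in cultured aortic cells of female and male mice. They are the protein-coding genes whose symbol is Cdh followed by a number or starts with Pcdh, without Cdh5, out of 54532 genes in the count table, of which 22046 are protein-coding. They comprise 22 cadherins, 12 non-clustered protocadherins and 57 clustered protocadherins, the last with 14 alpha, 22 beta and 21 gamma genes. The rule used symbols and biotypes only and no measured value. Bulk RNA-seq was made from primary cultures labelled as mouse aortic endothelial cells (MAEC), of female mice, 3 libraries, and of male mice, 3 libraries. All 6 are labelled as carrying an endothelial-cell-specific knockout of Oct4, the pluripotency factor gene Pou5f1. All were grown without treatment in F-12 medium with 20% fetal bovine serum, heparin and endothelial growth factors. The driver of the knockout, the age of the mice and the number of animals behind a culture were not given in the sources used here, and wild-type cells were not analysed here. The comparison is therefore female Oct4 KO over male Oct4 KO cells. Nothing in the labels tells whether the libraries of 1 sex are separate cultures, separate animals or repeats of 1 culture. Each p-value therefore reflects the spread among these libraries alone, and that spread may be technical.

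Cadherins are single-pass membrane proteins that bind between neighbouring cells through calcium-stiffened extracellular repeats. The cytoplasmic tails of the classical types hold beta-catenin and p120-catenin, and alpha-catenin links them to actin. Protocadherins lack the catenin-binding tail. The clustered ones are encoded at a single locus where each alpha and gamma promoter precedes its own variable exon, spliced to constant exons shared by its subcluster, and neurons choose promoters at random to give each cell an identity code. The non-clustered delta protocadherins act in tissue patterning, cell migration and neural circuits. VE-cadherin, the gene excluded by the rule, is the usual cadherin of endothelial junctions, and N-cadherin is the usual one of fibroblasts, smooth muscle and pericytes.

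Total counts ran between 20404758 and 21483163 for female and between 19299742 and 23064738 for male cells. Levels are CPM, the count scaled to the TMM-adjusted library size. A library with 0 counts of a gene could hold up to 3 at 95% confidence, or 0.123 to 0.154 CPM, a limit that covers counting error only. The labelled cell type was checked on its markers. Of 10 endothelial markers, 8 were under 1 CPM in all 6 libraries and Emcn and Cldn5 had 0 counts. Their summed level was 4.71 to 6.81 CPM in female and 4.79 to 5.51 CPM in male cells. Of 8 fibroblast markers, 7 were at 10 CPM or more in all libraries. The sum of the 8 was 15270 to 17180 CPM in female and 6635 to 7204 CPM in male cells. These markers go against the endothelial label in both sexes. Whether the cells read here carry an endothelial-cell-specific knockout was not tested. The sum of 6 smooth muscle markers was 60.0 to 65.1 CPM in female and 150.0 to 162.4 CPM in male cells. That of 6 pericyte markers was 442.0 to 460.1 and 720.2 to 760.8 CPM, and that of 8 neural and Schwann cell markers 69.7 to 76.9 and 37.2 to 45.7 CPM. Within the pericyte sum Rgs5 (0.756 in female and 255.9 CPM in male cells) and Pdgfrb (315.4 and 464.4 CPM) were higher in male cells. Cspg4 (108.5 and 3.19 CPM), Kcnj8, Abcc9 and Notch3 were higher in female cells. Most of the smooth muscle sum was Smtn (57.5 and 132.2 CPM), with 4 of the 6 markers under 1 CPM in all libraries. In the neural sum Snap25 was at 58.0 and 1.41 CPM and Tubb3 at 13.2 and 34.3 CPM. The sum of 8 mesothelial and epithelial markers was 9.07 to 13.5 CPM in female and 12.2 to 18.6 CPM in male cells, with Msln, Upk3b and Lrrn4 at 0. The sum of 6 leukocyte markers was 69.6 to 86.0 CPM in female and 77.3 to 93.6 CPM in male cells, with Ptprc and Adgre1 at 0. The part of cell composition in the differences below was not tested, and in bulk RNA fewer cells of a type and less RNA per cell cannot be told apart.

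Of the 91 genes, 14 had 0 counts in all 6 libraries and 38 were too low to test, none of these with more than 20 counts in any library. Of the 53 tested genes, 26 were higher in female cells, 12 were lower and 15 were not called, at an edgeR adjusted p under 0.05. Over all 14814 genes tested, 60.7% were called, 30.9% higher and 29.8% lower, so a call by itself was common in these cells. A change of at least 4-fold was called for 25 of the 53 genes, or 47.2%, against 10.1% of all tested genes and 9.6% of the tested protein-coding genes. The median size of the log2 fold change was 1.33 over the 53 genes and 0.53 over all tested genes. Female and male libraries were fully apart for 42 of the 53 genes, 30 higher and 12 lower in female cells, and for 67.1% of all tested genes. A gene passed the low-count filter at about 0.487 CPM in 3 libraries. Cdh17, Pcdh15, Pcdh17, Pcdh20, Pcdha11 and Pcdhb11 reached it in female libraries alone, and Cdh18, Cdh26 and Pcdhb2 in male libraries alone, so these 9 had to differ to be tested. Of the other 44 genes, 17 were called at 4-fold or more, or 38.6%, and their median size of the log2 fold change was 0.92. Among these 44, Cdh13, Pcdhb3, Pcdhga11 and Pcdhgb4 reached the minimum in every male library but not in every female one. Pcdhac2, Pcdhb15 and Pcdhga9 reached it in every female library but not in every male one. The 38.6% is therefore not free of the filter either.

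**Figure D1:**
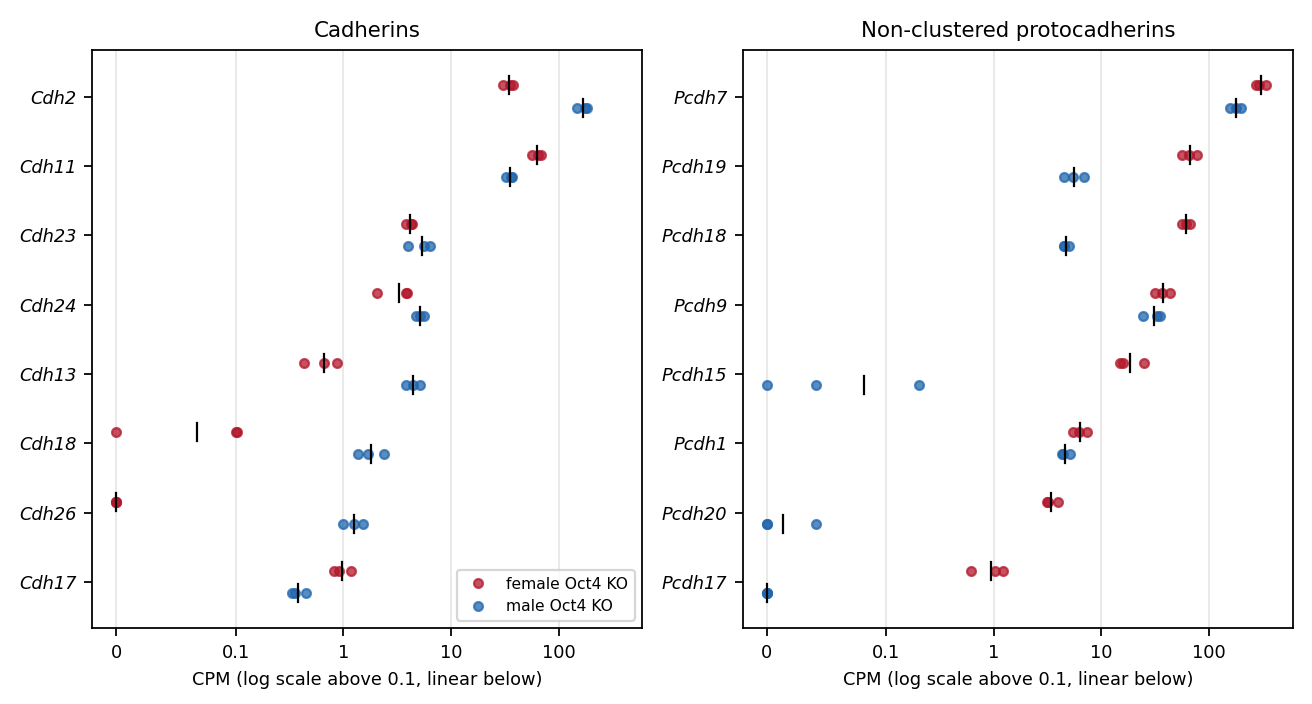
Level of the tested cadherins (left) and non-clustered protocadherins (right) in each library, in CPM, on an axis that is logarithmic above 0.1 and linear below. Points are libraries (female Oct4 KO in red above male Oct4 KO in blue, 3 each) and the black bars are means; Cdh2 lies to the right in male cells, while Pcdh18, Pcdh19 and Pcdh15 lie far to the right in female cells.

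The summed level of the cadherins was lower in female cells, chiefly through Cdh2. The 22 cadherins together stood at 118.0, 101.5 and 105.2 CPM in female cells and at 226.8, 201.9 and 239.7 CPM in male cells. Cdh2, which encodes N-cadherin, the type I cadherin of mesenchymal and neural cells, had 777, 691 and 602 counts in female cells and 3676, 2935 and 4493 in male cells. The lowest male library was thus several times above the highest female one. Its level was 34.5 ± 3.60 CPM in female and 169.0 ± 18.9 CPM in male cells (SD, n = 3 each), a log2 fold change of -2.29 ± 0.10 (SE, edgeR adjusted p = 6.63e-12). Cdh2 lies on mm10 chromosome 18, 16588877 to 16809246, on the minus strand. Per kilobase of exon it was the most abundant cadherin of male cells, at 20.9 ± 2.35 CPM per kb, against 4.27 ± 0.45 in female cells.

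Cdh11, the type II cadherin of fibroblasts and osteoblasts, ran the other way. It had 1434, 1107 and 1261 counts in female cells and 783, 648 and 872 in male cells, with no overlap. Its level was 63.3 ± 6.30 CPM in female and 35.2 ± 2.30 CPM in male cells, a log2 fold change of 0.85 ± 0.10 (edgeR adjusted p = 1.34e-06). With a correction of each library for gene length and GC content the value was 0.45 (edgeR adjusted p = 0.000848, the highest of 16 alternative settings, the lowest being 5.97e-15). Per kilobase, Cdh11 at 7.11 ± 0.71 CPM per kb in female cells was above the 4.27 of Cdh2 there, whereas in male cells Cdh2 at 20.9 was above Cdh11 at 3.96 ± 0.26. The order of these 2 genes was therefore opposite in the sexes, with each gap larger than the spread between libraries.

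Cdh13, Cdh18 and Cdh26 were read mainly in male cells. Cdh13 encodes T-cadherin, which is held to the membrane by a lipid anchor, binds adiponectin and is known from vascular cells. It had 9, 17 and 13 counts in female and 80, 102 and 108 in male cells. The corresponding levels were 0.655 ± 0.218 CPM in female and 4.46 ± 0.675 CPM in male cells, a log2 fold change of -2.76 ± 0.36 (edgeR adjusted p = 4.02e-06). Cdh18, a type II cadherin best known from the brain, had 0, 2 and 2 counts in female and 29, 47 and 41 in male cells. The male over female ratio was 26.9 (95% counting interval 10.2 to 100.3, edgeR adjusted p = 2.17e-05). Cdh26, a cadherin described in epithelia and leukocytes, had 0 counts in each female library and 21, 25 and 37 in male cells. That is at least 8.38-fold higher in male cells against 3 counts per library (edgeR adjusted p = 2.11e-05).

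The other tested cadherins differed little or unstably. Cdh24, a widely expressed type II cadherin, had 80, 40 and 76 counts in female and 99, 111 and 124 in male cells. Its log2 fold change was -0.65 ± 0.27 (edgeR adjusted p = 0.0454), and the call was lost under 7 of 16 alternative settings (edgeR, limma or DESeq2 adjusted p 0.0215 to 0.175). Cdh23, the long cadherin of inner-ear hair bundles, had 90, 83 and 76 counts in female and 84, 127 and 136 in male cells and was not called (log2 -0.36 ± 0.24 at an edgeR adjusted p of 0.203). With the length and GC correction it was called lower (log2 -0.84, edgeR adjusted p = 0.00497), the only one of 16 settings to do so. Cdh17, the liver-intestine cadherin, had 19, 16 and 23 counts in female and 7, 7 and 11 in male cells (log2 1.33 ± 0.53 at an edgeR adjusted p of 0.0376). Its call was lost under 11 of 15 settings (adjusted p 0.0321 to 0.144), and it is named because it was 1 of only 2 cadherins called higher.

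In all, 2 of 8 tested cadherins were called higher in female cells and 5 lower, beside the 30.9% and 29.8% of all tested genes. Cdh17 passed the low-count filter through female libraries alone, and Cdh18 and Cdh26 through male libraries alone. These genes had to differ to be tested, so the tally is not free of the filter. Among the others, Cdh11 was called higher, Cdh2, Cdh13 and Cdh24 were called lower and Cdh23 was not called. The remaining 14 cadherins were too low to test. Cdh4, Cdh6, Cdh7, Cdh8, Cdh9 and Cdh20 had 0 counts in all 6 libraries. E-cadherin, the epithelial cadherin gene Cdh1, had 0 counts in each female library and 0, 2 and 0 in the male libraries. Among the untested genes, chosen after their values were seen, Cdh19 had 7, 13 and 11 counts in female cells and 0 in each of the male ones, thus at least 3.75-fold higher in female cells. It is a type II cadherin known from Schwann cell precursors, and Sox10 and S100b, defining genes of that lineage, had at most 2 and 4 counts in any library. Cdh3, the P-cadherin gene, had 9, 1 and 3 counts in female and 0 in male cells, at least 1.53-fold higher. Cdh10, a type II cadherin, had 9, 4 and 4 counts in female and 0, 0 and 1 in male cells, a ratio of 18.5 (95% counting interval 2.90 to 773.0).

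Of the 3 classes, the non-clustered protocadherins had no member called lower in female cells. Of 8 tested, 6 had higher levels in female cells, 0 had lower ones and 2 were not called. Over all tested genes, 30.9% were called higher and 29.8% lower. Pcdh15, Pcdh17 and Pcdh20 passed the filter through female libraries alone, so these genes had to differ to be tested. Among the other 5, Pcdh7, Pcdh18 and Pcdh19 were called higher and Pcdh1 and Pcdh9 were not called. The median log2 fold change of these 5 was 0.77, against -0.01 over all tested genes. Both uncalled genes had positive fold changes, so 0 were lower at an unadjusted edgeR p under 0.05 as well, and DESeq2 and limma-voom also called 0 lower. Their summed level was 482.3, 563.2 and 442.2 CPM in female cells and 224.9, 194.1 and 249.4 CPM in male cells. Most of that sum came from Pcdh7 in both sexes.

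Delta protocadherins divide into delta-1 genes and delta-2 genes, which have fewer extracellular repeats and several of which recruit the WAVE actin regulator through their tails. The delta-2 genes Pcdh8, Pcdh10, Pcdh17, Pcdh18 and Pcdh19 together stood at 128.0, 144.4 and 114.8 CPM in female cells and at 9.91, 9.38 and 11.4 CPM in male cells. Pcdh10, Pcdh17, Pcdh18 and Pcdh19 each had more counts in female than in male cells. Of these, Pcdh10 was too low to test and Pcdh17 passed the filter through female libraries alone. Pcdh8, also too low to test, had too few counts to tell the sexes apart. Pcdh18 lies on chromosome 3, 49743296 to 49757325, minus strand. It had 1265, 1298 and 1114 counts in female and 94, 98 and 110 in male cells. Its level was 61.4 ± 5.02 CPM in female and 4.64 ± 0.26 CPM in male cells, a log2 fold change of 3.72 ± 0.12 (edgeR adjusted p = 1.01e-13). Pcdh19, an X-linked gene (X chromosome, 133582860 to 133688987, minus strand) whose human variants cause an epilepsy of females, had 1355, 1505 and 1115 counts in female and 115, 88 and 168 in male cells. At 66.3 ± 10.3 CPM in female and 5.60 ± 1.24 CPM in male cells, its log2 fold change was 3.55 ± 0.16 (edgeR adjusted p = 4.31e-12). No male library of either gene came near a female one.

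Pcdh17, a delta-2 gene studied in presynaptic assembly, had 21, 12 and 24 counts in female cells and 0 in each of the male ones, thus at least 6.82-fold higher in female cells (edgeR adjusted p = 6.81e-05). Pcdh10, studied in brain wiring and as a gene silenced in tumours, had 7, 2 and 12 counts in female and 0 in each of the male ones, thus at least 2.52-fold higher in female cells, and was untested. Pcdh8, also known as paraxial protocadherin, had 2, 1 and 0 counts in female and 0 in male cells.

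The promoters of Pcdh10, Pcdh17, Pcdh18 and Pcdh19 are shown because these delta-2 genes had more counts in female than in male cells. Each line gives the 250 bases before the RefSeq transcript start in mouse GRCm38.p6, from 5′ to 3′ on the gene's strand. Capitals mark GC boxes (GGGCGG or CCGCCC) and CCAAT boxes (CCAAT or ATTGG), which do not overlap one another there. The windows are chr3:45378148-45378397 (plus strand) for Pcdh10, chr14:84443313-84443562 (plus) for Pcdh17, chr3:49757317-49757566 (minus) for Pcdh18 and chrX:133688994-133689243 (minus) for Pcdh19.
Pcdh10: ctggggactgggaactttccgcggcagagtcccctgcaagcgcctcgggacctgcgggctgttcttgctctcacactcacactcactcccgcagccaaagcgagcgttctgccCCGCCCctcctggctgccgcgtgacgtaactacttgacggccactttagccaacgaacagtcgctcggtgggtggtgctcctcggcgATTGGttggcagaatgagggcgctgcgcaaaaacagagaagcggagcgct
Pcdh17: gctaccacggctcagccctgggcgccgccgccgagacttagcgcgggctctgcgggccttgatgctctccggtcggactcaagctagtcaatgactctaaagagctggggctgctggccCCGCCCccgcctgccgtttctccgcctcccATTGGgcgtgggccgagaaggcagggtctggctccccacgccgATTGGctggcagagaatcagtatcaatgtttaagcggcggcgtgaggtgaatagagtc
Pcdh18: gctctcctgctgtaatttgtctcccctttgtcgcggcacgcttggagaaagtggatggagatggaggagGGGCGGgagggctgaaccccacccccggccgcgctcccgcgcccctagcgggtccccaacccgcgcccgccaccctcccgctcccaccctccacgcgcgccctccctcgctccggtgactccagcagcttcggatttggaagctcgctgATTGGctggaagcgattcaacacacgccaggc
Pcdh19: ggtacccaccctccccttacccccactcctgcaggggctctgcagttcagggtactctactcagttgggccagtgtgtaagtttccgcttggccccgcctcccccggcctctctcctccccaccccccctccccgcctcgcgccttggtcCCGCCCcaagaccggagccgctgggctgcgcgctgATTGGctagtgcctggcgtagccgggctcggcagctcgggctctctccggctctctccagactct
All 4 windows hold a GC box and at least 1 CCAAT box, the latter found as ATTGG in the part nearer the start. Of 32851 RefSeq promoter windows of the same length, 32.7% hold a GC box and 33.8% a CCAAT box on either strand. Of the 25 windows of cadherin and protocadherin genes used here, 9 hold a GC box and 15 a CCAAT box, so the CCAAT box was common among them too. Pcdh8, the other delta-2 gene, has a CCAAT box, a TATA box (TATAAA, in 12.4% of all windows) and an octamer (ATGCAAAT, in 1.6%) but no GC box. None of the 5 windows holds the E-box CAGGTG, which is in 17.2% of all windows. The 4 printed windows have a GC content of 63.2%, 64.8%, 68% and 69.2% in the order shown, against a median of 52.4% over all windows. The Pcdh8 window has 51.2%. A high GC content was not particular to the printed windows. It was 72.8% for Cdh24, called lower in female cells, and 63.6% for Pcdh9, not called. Promoter windows were used for 22 of the 91 genes. The CCAAT box was added to the motifs after these sequences had been read, and a match is only a match of letters.

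Among the delta-1 genes Pcdh7 was the most abundant of all 91 genes by CPM. It had 6076, 6637 and 5347 counts in female and 3743, 3086 and 4800 in male cells. Its level was 301.5 ± 35.2 CPM in female and 176.8 ± 20.9 CPM in male cells, a log2 fold change of 0.77 ± 0.10 (edgeR adjusted p = 3.97e-06). With the length and GC correction it was 0.31 (edgeR adjusted p = 0.0015, the highest over the 16 settings, of which the lowest was 1.82e-18). Of its exon bases 21.1% overlap 4932441J04Rik on the opposite strand, so part of its counts is uncertain. Pcdh9 had 759, 852 and 620 counts in female and 693, 486 and 858 in male cells and was not called (log2 0.27 ± 0.14 at an edgeR adjusted p of 0.11). Its sign turned with the length and GC correction, at -0.08, and without female replicate 3 it was called higher, at 0.38 (edgeR adjusted p = 0.0302 there, 0.0302 to 0.582 over 16 settings). Pcdh1, a delta-1 gene of airway epithelium, had 113, 143 and 121 counts in female and 91, 87 and 125 in male cells and was not called either (log2 0.45 ± 0.21 at an edgeR adjusted p of 0.0789). Pcdh11x had 0 counts in female cells and 5, 0 and 2 in male cells.

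Protocadherins outside the delta groups included genes read almost only in female cells. Pcdh15, a partner of Cdh23 in the tip links of hair cells, had 325, 482 and 295 counts in female cells and 0, 4 and 1 in male cells. The female over male ratio was 239.8 (95% counting interval 102.5 to 740.0, edgeR adjusted p = 7.25e-11). The fitted log2 fold change, which rests on these few male counts, was 7.80, and 9.35 without male replicate 2. Its tip-link partner Cdh23, not called, was at 4.15 ± 0.26 CPM in female and 5.33 ± 1.23 CPM in male cells. Pcdh20 had 64, 62 and 78 counts in female and 0, 0 and 1 in male cells, a ratio of 222.0 (39.4 to 8809, edgeR adjusted p = 1.17e-07). Its fitted value was 7.33, and 9.10 without male replicate 3, which held the single male count. The endothelial protocadherin Pcdh12, also called VE-cadherin-2, had 0 counts in each female library and 1, 0 and 0 in the male libraries.

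**Figure D2:**
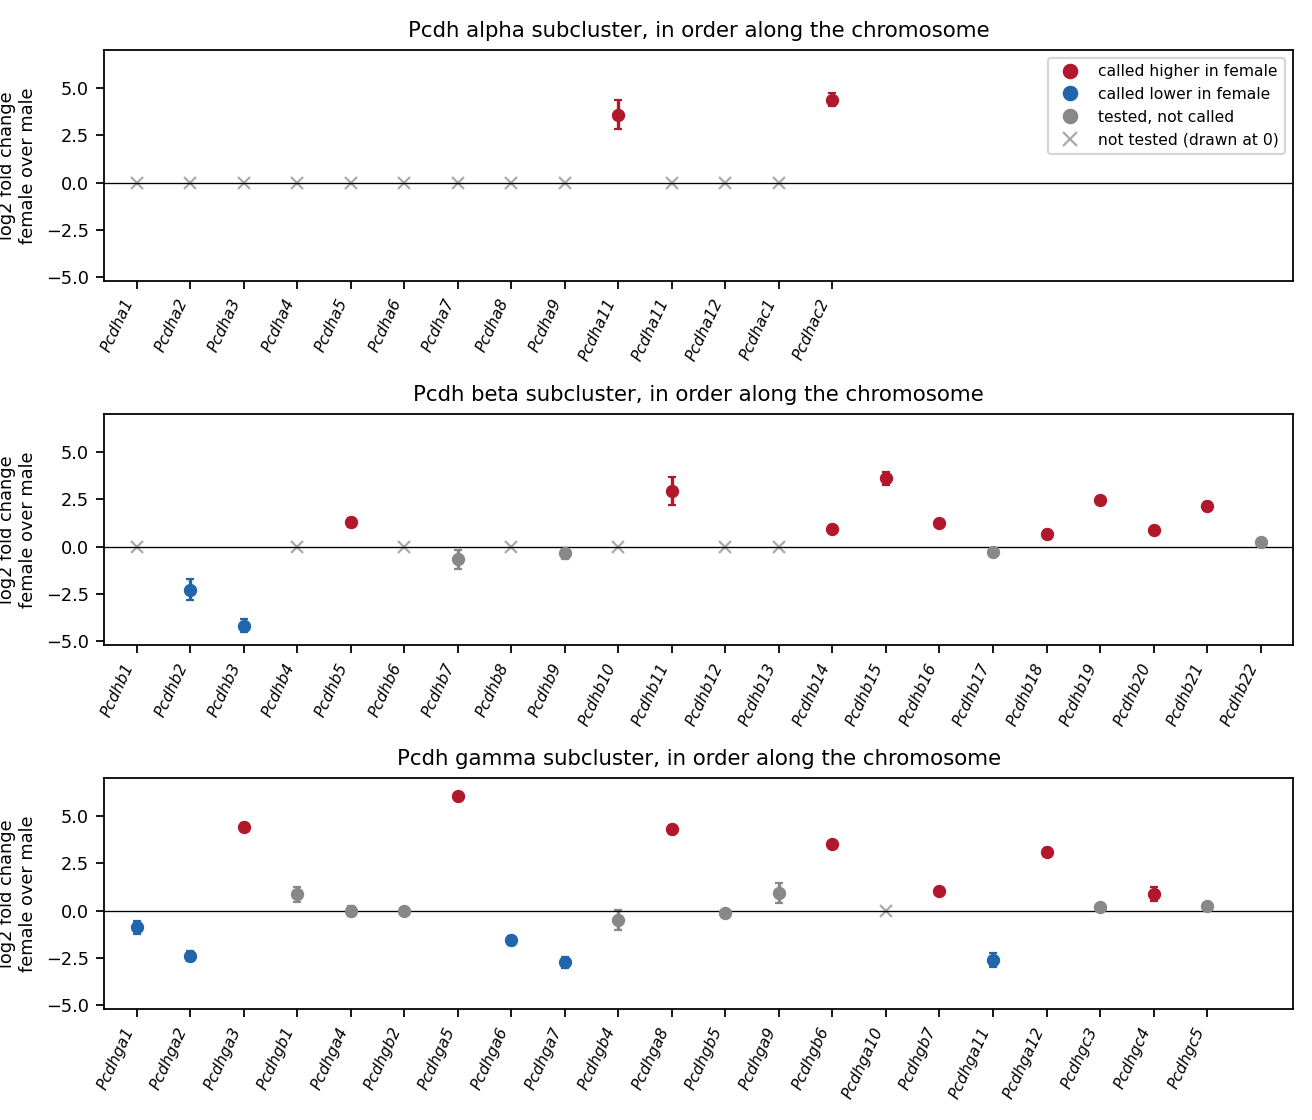
Log2 fold change, female over male, of the clustered protocadherins in their order along the chromosome, for the alpha (top), beta (middle) and gamma (bottom) subclusters. Points are edgeR estimates with SE bars, coloured by call, and crosses at 0 are genes too low to test; genes higher and lower in female cells are interspersed in short runs along the gamma subcluster, and Pcdhb2 and Pcdhb3 are the lower genes of the beta subcluster.

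The clustered protocadherins lie in a row on chromosome 18, the alpha genes from 36930184, the beta genes from 37264938 to 37524479 and the gamma genes from 37661793 to 37841873, all on the plus strand. Of 37 tested, 18 had higher and 7 lower levels in female cells and 12 were not called. That is a called share of 67.6%, beside 60.7% of all tested genes. On chromosome 18 as a whole, 45.2% of 394 tested genes were higher in female cells and 19.8% lower. The 57 genes summed to 615.0, 669.0 and 530.2 CPM in female and 321.0, 311.1 and 351.2 CPM in male cells. Which members made up the sum differed between the sexes. Alpha and gamma genes share constant exons with the other genes of their subcluster. Between 31.5% and 91.4% of their annotated exon bases are shared with genes of the same strand, which also takes in overlaps outside the constant exons. The treatment of reads in shared exons was not given in the sources used here. Levels within these subclusters are therefore uncertain, and levels per kilobase are taken over unshared exon bases. The beta genes are single exons, and Pcdhb21 and Pcdhb22 share 9.7% and 6.9% of their bases with each other. Pcdhb12, too low to test, overlaps Gm37446 on the opposite strand over 63.5% of its bases. The other beta genes share no exon bases.

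The alpha subcluster was read almost only in female cells, at 22.0, 22.9 and 18.3 CPM, against 0.854, 0.302 and 2.06 CPM in male cells. Pcdhac2, the C-type gene next to the constant exons, had 390, 410 and 314 counts in female and 15, 4 and 40 in male cells. Its log2 fold change was 4.38 ± 0.34 (edgeR adjusted p = 8.66e-09), and 5.30 without male replicate 3, which held most of the male counts. Among the alternate alpha genes, 1 of 12 could be tested. It is the row named Pcdha11 with identifier ENSMUSG00000007440, with 31, 34 and 36 counts in female and 0, 0 and 9 in male cells. Its log2 fold change was 3.60 ± 0.77 (edgeR adjusted p = 0.000669), and 8.09 without male replicate 3, which held every male count. A second row carries the same symbol and had 4, 0 and 3 counts in female and 0, 2 and 0 in male cells. The other alternate alpha genes had at most 20 counts in a library, and Pcdha2, Pcdha4, Pcdha5, Pcdha6, Pcdha7 and the C-type gene Pcdhac1 had 0 in all 6.

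The beta subcluster summed to 180.4, 189.4 and 156.9 CPM in female and 109.1, 104.0 and 106.4 CPM in male cells. Of 15 tested genes, 9 were higher, 2 lower and 4 not called, so 73.3% were called, beside 60.7% of all tested genes. Pcdhb19 had 698, 763 and 552 counts in female and 106, 122 and 175 in male cells (log2 2.45 ± 0.16 at an edgeR adjusted p of 1.18e-09). Pcdhb17 had 568, 551 and 413 counts in female and 682, 577 and 783 in male cells (log2 -0.29 ± 0.12 at an edgeR adjusted p of 0.0519). Not called here, Pcdhb17 was called lower under 7 of 16 settings (adjusted p 0.0019 to 0.25). Per kilobase, Pcdhb17 was the highest beta gene of both sexes, at 5.48 ± 0.86 CPM per kb in female and 6.70 ± 0.39 in male cells. In male cells the next, Pcdhb20, stood at 2.54 ± 0.58, well below it. In female cells Pcdhb19 at 4.71 ± 0.78, Pcdhb20 at 4.59 ± 0.03 and Pcdhb16 at 4.45 ± 0.90 were lower on average, with libraries that overlapped those of Pcdhb17.

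Pcdhb16 had 510, 530 and 356 counts in female and 186, 218 and 228 in male cells (log2 1.26 ± 0.16 at an edgeR adjusted p of 4.06e-06). Pcdhb14 had 373, 340 and 308 counts in female and 152, 223 and 210 in male cells (log2 0.92 ± 0.17 at an edgeR adjusted p of 0.000154). With the length and GC correction its value was 0.43 (edgeR adjusted p = 0.0487, the highest of 16 settings, with a lowest of 1.49e-07). Pcdhb20 had 338, 321 and 320 counts in female and 237, 141 and 212 in male cells (log2 0.85 ± 0.17 at an edgeR adjusted p of 0.000282). In these 3 genes no male library reached a female one. Pcdhb22 had 349, 331 and 312 counts in female and 304, 250 and 355 in male cells and was not called (log2 0.25 ± 0.13 at an edgeR adjusted p of 0.113).

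Other beta genes, chosen after their values were seen, went further apart. Pcdhb3 had 3, 8 and 14 counts in female and 162, 148 and 189 in male cells (log2 -4.17 ± 0.36 at an edgeR adjusted p of 3.77e-08). Without female replicate 3 its fold change was -4.77. Pcdhb15 had 155, 143 and 136 counts in female and 13, 17 and 8 in male cells (log2 3.60 ± 0.32 at an edgeR adjusted p of 5.6e-08). Pcdhb2 and Pcdhb3, the lower genes in female cells, lie next to each other at the alpha side of the subcluster, and the run from Pcdhb14 to Pcdhb22 holds 7 of the 9 higher genes.

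The gamma subcluster was the most abundant, at 412.5, 456.6 and 355.0 CPM in female and 211.0, 206.8 and 242.7 CPM in male cells. Of 20 tested genes, 7 were higher, 5 lower and 8 not called, so 60.0% were called, beside 60.7% of all tested genes. Of the 3 C-type genes, Pcdhgc3 and Pcdhgc5 were not called. Pcdhgc3, the gamma gene most widely expressed outside neurons, had 2423, 2520 and 1936 counts in female and 1964, 1771 and 2769 in male cells. The libraries overlapped and it was not called (log2 0.22 ± 0.11 at an edgeR adjusted p of 0.0963). Without female replicate 3 and without male replicate 3 it was called higher, at 0.32 each (edgeR adjusted p = 0.0158 and 0.0191, within 0.0158 to 0.467 over 16 settings). Pcdhgc5 had 818, 657 and 704 counts in female and 641, 562 and 817 in male cells and was not called (log2 0.24 ± 0.11 at an edgeR adjusted p of 0.0671). It was called higher without female replicate 2 and without male replicate 3, at 0.29 and 0.30 (edgeR adjusted p = 0.038 and 0.0482, within 0.038 to 0.89 over 16 settings). Pcdhgc4, a gene required for neuronal survival in mice, was low, at 2.89 ± 0.39 CPM in female and 1.56 ± 0.50 CPM in male cells (log2 0.88 ± 0.35 at an edgeR adjusted p of 0.0387), and its call was lost under 10 of 16 settings (adjusted p 0.0323 to 0.12). Within the C-type counts Pcdhgc3 took 74.4% ± 3.02 in female and 75.3% ± 0.92 in male cells. Per kilobase of unshared exon Pcdhgc3 was the highest of all 91 genes, at 63.0 ± 8.57 CPM per kb in female and 54.2 ± 7.26 in male cells, although 28.4% of its exon bases overlap BC037039 on the opposite strand.

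Cells of the 2 sexes differed in which alternate gamma genes, those of the A and B types, were read. Pcdhga5 had 1193, 1302 and 917 counts in female and 23, 16 and 17 in male cells. Its level was 56.9 ± 10.1 CPM in female and 0.866 ± 0.202 CPM in male cells, a log2 fold change of 6.04 ± 0.20 (edgeR adjusted p = 8.12e-14). Pcdhgb6 had 1358, 1292 and 1182 counts in female and 113, 126 and 121 in male cells (log2 3.53 ± 0.12 at an edgeR adjusted p of 1.89e-13). Pcdhga12 had 563, 665 and 490 counts in female and 52, 78 and 86 in male cells (log2 3.11 ± 0.19 at an edgeR adjusted p of 2.58e-10). Every female library was several times above every male one in each of these 3 genes. Pcdhgb2 had 280, 376 and 251 counts in female and 272, 297 and 434 in male cells, with overlapping libraries and no call (log2 -0.01 ± 0.17 at an edgeR adjusted p of 0.966).

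Another 5 genes, chosen after their values were seen, differed at least 4-fold. Pcdhga3 (log2 4.42 ± 0.19 at an edgeR adjusted p of 3.74e-12) and Pcdhga8 (log2 4.30 ± 0.24 at an edgeR adjusted p of 1.43e-10) were higher in female cells. Pcdhga7 (log2 -2.73 ± 0.28 at an edgeR adjusted p of 3.02e-07), Pcdhga11 (log2 -2.60 ± 0.39 at an edgeR adjusted p of 1.97e-05) and Pcdhga2 (log2 -2.39 ± 0.28 at an edgeR adjusted p of 1.29e-06) were lower. Pcdhga7 had 32, 44 and 19 counts in female and 173, 265 and 248 in male cells. Pcdhga2 had 55, 40 and 19 counts in female and 201, 178 and 277 in male cells. Pcdhga1 was called lower (log2 -0.88 ± 0.35 at an edgeR adjusted p of 0.0398) although its libraries overlapped, with 40, 84 and 27 counts in female and 97, 77 and 132 in male cells. That call was lost under 5 of 16 settings (adjusted p 0.000815 to 0.152), and the value was -1.48 without female replicate 2. Every exon base of Pcdhga10 is shared with another gene, 44.8% on its own strand and 55.2% with Gm26672 on the other, so its 0 counts in all 6 libraries cannot be read as absence.

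**Figure D3:**
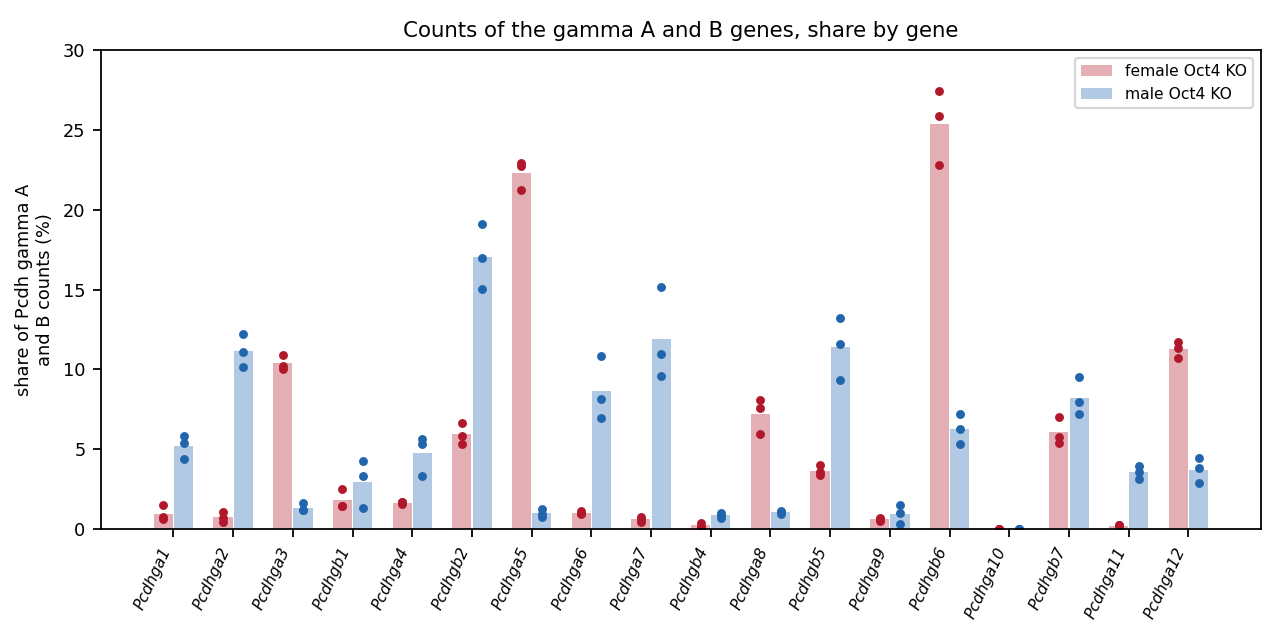
Share of the summed counts of the 18 gamma A and B genes taken by each gene, in percent, in their order along the chromosome. Bars are means and points are libraries (female Oct4 KO in red left of male Oct4 KO in blue, 3 each); Pcdhga5 and Pcdhgb6 hold the tallest female bars at 22.3% and 25.4%, and Pcdhgb2 the tallest male bar at 17.1%.

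Shares within the subcluster remove its total, which was 253.4, 290.6 and 218.5 CPM in female and 85.8, 88.1 and 93.2 CPM in male cells over the 18 A and B genes. The 5 genes with the largest female shares were Pcdhgb6, Pcdhga5, Pcdhga12, Pcdhga3 and Pcdhga8. Together they took 77.7%, 75.1% and 77.0% of the A and B counts of female cells and 12.7%, 14.9% and 12.5% of those of male cells. The 5 with the largest male shares were Pcdhgb2, Pcdhga7, Pcdhgb5, Pcdhga2 and Pcdhga6, at 12.1%, 12.6% and 11.1% of female counts and 58.2%, 59.8% and 62.5% of male counts. These groups were picked on the shares themselves, so the gap between the sexes is a description. No gene was in both groups by these count shares, which are not corrected for exon length. Per kilobase of unshared exon, Pcdhgb7 stood at 8.36 ± 0.86 CPM per kb in female cells, above Pcdhga12 at 6.96 ± 1.16. In male cells it stood at 4.01 ± 0.50, above Pcdhgb5 at 2.20 ± 0.44. By that measure Pcdhgb7 would be among the leading genes of both sexes. The shares were steady between libraries of a sex: Pcdhga5 took 22.3% ± 0.92 of female counts and Pcdhgb6 25.4% ± 2.36, against 0.979% ± 0.266 and 6.26% ± 0.94 of male counts. In male cells the counts were spread more evenly, with Pcdhgb2 at 17.1% ± 2.05, against 5.93% ± 0.65 in female cells, and no other gene above the 11.9% ± 2.92 of Pcdhga7, against 0.609% ± 0.168 in female cells.

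Of the genes that work with cadherins, 95 were listed in 9 groups and 67 could be tested, of which 34 were higher in female cells, 15 lower and 18 not called. The share called was 73.1%, beside 60.7% of all tested genes. With the length and GC correction 23 were higher and 19 lower, a share of 62.7% beside 59.1% of all genes. Without that correction the share by group ran from 60.0% for the cadherin-related and the cleavage genes to 87.5% for the E-box repressors. For the regulators of clustered protocadherin promoters it was 66.7%. Of 12 tested catenins and actin anchors 7 were higher and 3 lower. Ctnnb1, the beta-catenin gene, was at 1024 ± 46.3 CPM in female and 445.1 ± 41.7 CPM in male cells (log2 1.20 ± 0.08 at an edgeR adjusted p of 1.84e-09), opposite to the Cdh2 RNA. Vcl, which encodes the actin anchor vinculin, was higher (log2 1.04 ± 0.15 at an edgeR adjusted p of 1.37e-05), as was Afdn, the nectin-to-actin linker afadin (log2 0.54 ± 0.10 at an edgeR adjusted p of 0.000126). Pkp4, a p120-related catenin gene, was lower (log2 -0.70 ± 0.11 at an edgeR adjusted p of 2.48e-05). The alpha-catenin gene Ctnna1 and the p120-catenin gene Ctnnd1, chosen after their values were seen, were at 349.7 ± 9.52 and 31.5 ± 0.78 CPM in female cells and at 361.2 ± 13.5 and 44.2 ± 1.79 CPM in male cells. Of these Ctnna1 was not called (log2 -0.05 ± 0.07 at an edgeR adjusted p of 0.6) and Ctnnd1 was lower (log2 -0.49 ± 0.09 at an edgeR adjusted p of 0.000241).

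**Figure D4:**
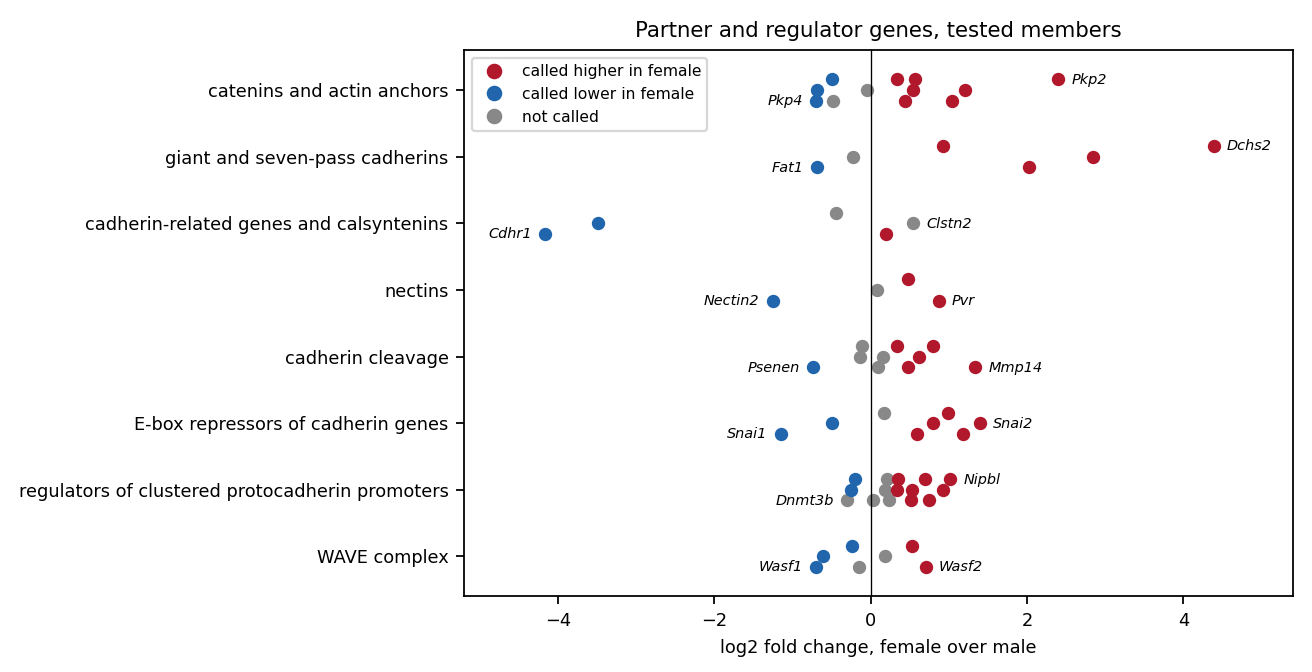
Log2 fold change, female over male, of each tested gene in 8 groups of cadherin partners and regulators; the desmosomal group had no tested gene. Each point is 1 gene coloured by its edgeR call, with the extreme genes of each group named; Dchs2 is farthest right and Cdhr1 farthest left.

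The group of giant and seven-pass cadherins and their modifier Fjx1 had 4 of 6 tested genes higher and 1 lower. The planar-polarity ligands Dchs1 and Dchs2 were at 120.0 ± 4.01 and 134.6 ± 23.7 CPM in female cells and at 16.6 ± 0.65 and 6.36 ± 1.80 CPM in male cells. Their log2 fold changes were 2.85 ± 0.09 for Dchs1 and 4.39 ± 0.17 for Dchs2 (edgeR adjusted p = 5.5e-14 and 7.67e-13). Fat4, the receptor of dachsous ligands, was not called (log2 -0.22 ± 0.12 at an edgeR adjusted p of 0.113), and Fat1 was lower (log2 -0.69 ± 0.09 at an edgeR adjusted p of 5.12e-06). Fjx1, a relative of the four-jointed kinase of Drosophila that modifies such cadherins, was higher (log2 0.93 ± 0.09 at an edgeR adjusted p of 6.72e-08). Of the 10 desmosomal genes 0 could be tested, and Dsc2 and Dsp alone had any counts, at most 17 in a library. Of 5 tested cadherin-related genes 1 was higher and 2 were lower, with Cdhr1 at 0, 9 and 6 counts in female and 52, 110 and 141 in male cells (log2 -4.16 ± 0.58 at an edgeR adjusted p of 9.22e-06). Of 4 tested nectins, the calcium-independent partners of cadherins, Pvr and Nectin3 were higher and Nectin2 was lower (log2 -1.25 ± 0.11 at an edgeR adjusted p of 3.59e-08).

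Of the 8 tested E-box repressors of cadherin genes 5 were higher and 2 lower. Snai1 was at 75.4 ± 4.95 CPM in female and 167.1 ± 13.7 CPM in male cells (log2 -1.15 ± 0.09 at an edgeR adjusted p of 5.87e-09). Its paralog Snai2 was at 58.3 ± 2.61 CPM in female and 22.2 ± 3.63 CPM in male cells (log2 1.40 ± 0.11 at an edgeR adjusted p of 1.61e-08), so the pair went opposite ways. Of 10 genes that cleave cadherins 5 were higher and 1 lower. They included Mmp14, a membrane-bound metalloproteinase gene, at 2337 ± 88.0 CPM in female and 928.0 ± 70.1 CPM in male cells (log2 1.33 ± 0.08 at an edgeR adjusted p of 2.4e-10), and Adam17 (log2 0.80 ± 0.08 at an edgeR adjusted p of 2.47e-07) and Adam10 (log2 0.62 ± 0.09 at an edgeR adjusted p of 1.98e-05). Psenen, a subunit of gamma-secretase, was lower (log2 -0.73 ± 0.09 at an edgeR adjusted p of 3.14e-06).

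Of 15 regulators of clustered protocadherin promoters, the proteins that loop or methylate DNA there, 8 were higher, 2 lower and 5 not called. Those higher included the cohesin loader Nipbl (log2 1.01 ± 0.09 at an edgeR adjusted p of 7.08e-08) and the cohesin subunits Stag2 (log2 0.93 ± 0.08 at an edgeR adjusted p of 4.76e-08) and Stag1 (log2 0.69 ± 0.08 at an edgeR adjusted p of 1.82e-06). The 2 lower genes, named after their values were seen, also encode cohesin subunits. They were Smc1a (log2 -0.20 ± 0.08 at an edgeR adjusted p of 0.035) and Smc3 (log2 -0.25 ± 0.08 at an edgeR adjusted p of 0.0158). Chosen after their values were seen, the loop anchor gene Ctcf was at 61.5 ± 2.65 CPM in female and 54.2 ± 2.84 CPM in male cells and was not called (edgeR adjusted p = 0.0783). The methyltransferase gene Dnmt3b, which in mouse neurons marks these promoters, was at 1.62 ± 0.90 and 2.00 ± 0.20 CPM and was not called either (edgeR adjusted p = 0.56). Of the 7 tested genes of the WAVE complex, which binds the tails of delta-2 protocadherins, 2 were higher and 3 lower. Wasf2 was higher (log2 0.70 ± 0.07 at an edgeR adjusted p of 4.31e-07) and Brk1 lower (log2 -0.61 ± 0.09 at an edgeR adjusted p of 1.05e-05).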

How the data were processed

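The 6 bulk RNA-seq libraries of cultured cells were compared, 3 female and 3 male, all Oct4 KO. The deposited table holds raw whole-number read counts per gene, which the authors had not normalised. Per the submitters' processing notes it was made with HISAT2 2.0.5, mm10 and featureCounts 1.5. The strand setting and the handling of reads that fit several genes were not given in the sources used here. The table held 0 columns of other samples and 0 rows without a gene name. Total counts were 19299742 to 23064738 per library.

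The fit to the counts of all genes used edgeR 4.0.16 with R 4.3.3 (filterByExpr, TMM, quasi-likelihood test, two-sided, Benjamini-Hochberg over 14814 genes, sex as the only term), after a test on simulated data. Calls were made below an adjusted p of 0.05. An SE is the size of the log2 fold change over the square root of F, and can understate the counting error of low genes. Folds against a group at 0 are bounds against 3 counts per library. Levels per kilobase use exon bases of GENCODE M21 that no other gene covers. Promoters are from RefSeq. DESeq2 1.42.0, limma-voom 3.58.1 and other scalings, filters and left-out libraries were tried. Within a sex, each pair of libraries had a chi-square of 7 to 14.7 per degree of freedom. None was therefore counted as a resequencing of another, but separate cultures and repeats of 1 culture cannot be told apart this way.

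The members, lists and tests were chosen with earlier results of these data known. Named by rule were the cadherins and non-clustered protocadherins with a mean of at least 1 CPM in a sex, up to 6 tested genes per clustered subcluster with the highest total counts, and up to 4 genes per partner list with the smallest adjusted p. Other genes were chosen after their values were seen.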

Additional observations from a re-analysis of the deposited data

How the results depend on the processing

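Over 16 alternatives the 53 tested members gave 840 values, of which 777 kept direction and side of the threshold, and 38 members did so throughout. The cadherins called higher in female cells numbered 1 in place of 2 with the length and GC correction, the replicate block, the stricter low-count filter and total counts, and 1 to 2 over the left-out libraries. The stricter filter left 4 cadherins called, 3 of them lower, in place of 7 and 5, because Cdh17, Cdh18 and Cdh26 were no longer tested. The sign turned for Pcdh9 (-0.0802) and Pcdhb22 (-0.0465) with the length and GC correction and for Pcdhga4 (0.00071) with the replicate block, none of them called; the cause was not tested. Over the left-out libraries the log2 fold change ran from -0.24 to 0.16 for Pcdhga4, -0.21 to 0.11 for Pcdhgb2 and -0.28 to 0.0217 for Pcdhgb5. Pcdhgb1 was called higher under 5 of 16 settings, limma-voom (0.93), no low-count filter (0.86), the replicate block (0.87) and without female replicate 3 (1.09) or male replicate 2 (1.20), and Pcdhga9 without male replicate 2 (1.43). Calls over the left-out libraries numbered 5 to 7 for cadherins, 6 to 7 for non-clustered and 23 to 27 for clustered protocadherins, 43 to 48 for partner genes and 8236 to 8841 for all genes. Same-numbered female and male libraries did not deviate together (correlations -0.014, -0.0976 and -0.1455 across 10812 genes), so the numbers do not pair the samples. With the number as a block, 5 cadherins, 6 non-clustered and 25 clustered protocadherins were called. Total counts shifted the median of all genes by -0.117 and upper quartile scaling by -0.0774 on the log2 scale. Under total counts 3956 genes were higher and 5294 lower, in place of 4580 and 4413. Genes under about 0.487 CPM could not be tested at this depth.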

Other observations

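Genes next to those described and left out by the rule had the following values. Pcdhgb8, annotated as a polymorphic pseudogene of the gamma subcluster, had 51, 49 and 50 counts in female and 49, 50 and 46 in male cells and was not called (edgeR adjusted p = 0.678), while its protein-coding neighbours differed up to the values given above. Cdh5, the VE-cadherin gene, had 0, 4 and 0 counts in female and 2, 0 and 3 in male cells. Pou5f1, the gene of the knockout, had 0 counts in all 6 libraries, which does not check the genotype without wild-type cells.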
